A study of Bubalus bubalis with 12 samples.

Results

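The 10 genes described here encode the mTOR kinase, its partner proteins, its upstream switch and 1 of its direct targets. They are MTOR, MLST8, RPTOR, AKT1S1, DEPTOR, RICTOR, RHEB, TSC1, TSC2 and EIF4EBP1, and they were chosen by gene name from the 34037 genes of the deposited table. Their levels were measured by RNA-seq in the ruminal wall of 12 adult Italian Mediterranean dairy buffaloes of a single farm, whose slaughter had already been scheduled. The control group of 6 animals was fed a total mixed ration (TMR), and the treated group of 6 animals was fed TMR with green feed, fresh ryegrass that made up about 30% of the diet. The rations were formulated to the same nitrogen and energy content, and the treated ration held more forage relative to concentrate. Each animal gave 1 library of total RNA from frozen rumen wall, with no pooling. The comparison asks whether the transcripts of this growth pathway differed between the 2 diets.

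The mTOR kinase works in 2 protein assemblies, mTORC1 and mTORC2, which couple cell growth to nutrients, insulin and energy. In mTORC1 the kinase is joined by RPTOR, which brings in the substrates, and in mTORC2 by RICTOR, while MLST8 sits on the kinase domain in both. RHEB, a small GTPase of the lysosome surface, switches mTORC1 on when it carries GTP, and the TSC1 and TSC2 proteins hold RHEB in its inactive state. Active mTORC1 phosphorylates EIF4EBP1, which then releases the cap-binding factor EIF4E and allows translation to start. Most of this control acts on proteins, by phosphorylation, binding and localization. RNA levels do not report on it.

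The values are FPKM, which divide the fragments of a gene by its length and by the total counted in that animal, so that levels can be compared between genes per length. The counted fragments ranged from 10531541 to 12948372 per animal. All 10 genes were detected in all 12 animals and were among the 12642 genes tested, each of them above the filter on low values in every animal. Squamous epithelium markers were abundant, with a summed level of 1388 to 3188 FPKM in control and 1863 to 4237 FPKM in treated animals. Markers of fibroblasts (39.6 to 251 FPKM in control, 16.4 to 165 FPKM in treated animals) and of smooth muscle (14.2 to 34.1 and 4.98 to 25.4 FPKM) were also present. The rumen wall is a mixture of these tissues, and in such samples fewer cells of a type and less RNA per cell cannot be told apart. Across all tested genes, control replicate 6 and treated replicate 6 resembled the other libraries least, with a mean correlation of 0.926 and 0.922 against 0.936 to 0.954 for the others. For the 10 genes, fold changes and ratios in which these libraries were the extreme animals are therefore also given without them.

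MLST8 was the only gene of the 10 with a nominal p-value below 0.05, the threshold used in the study. It was 1.52-fold higher in treated animals (95% interval 1.19 to 1.95), while the 95% intervals of the other 9 genes all included 0 on the log2 scale. Of the 12642 genes tested, 157 (1.24%) passed the nominal threshold in limma, 100 of them (0.791%) higher and 57 (0.451%) lower in treated animals. With Benjamini-Hochberg adjustment over all genes, 0 genes (0%) passed in limma, which holds for MLST8 too. The median log2 fold change of the 10 genes was -0.01, against 0.01 over all genes tested. MLST8 is among the genes that the study listed as changed in these same animals, so that its test is not independent evidence of a difference.

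**Figure D1:**
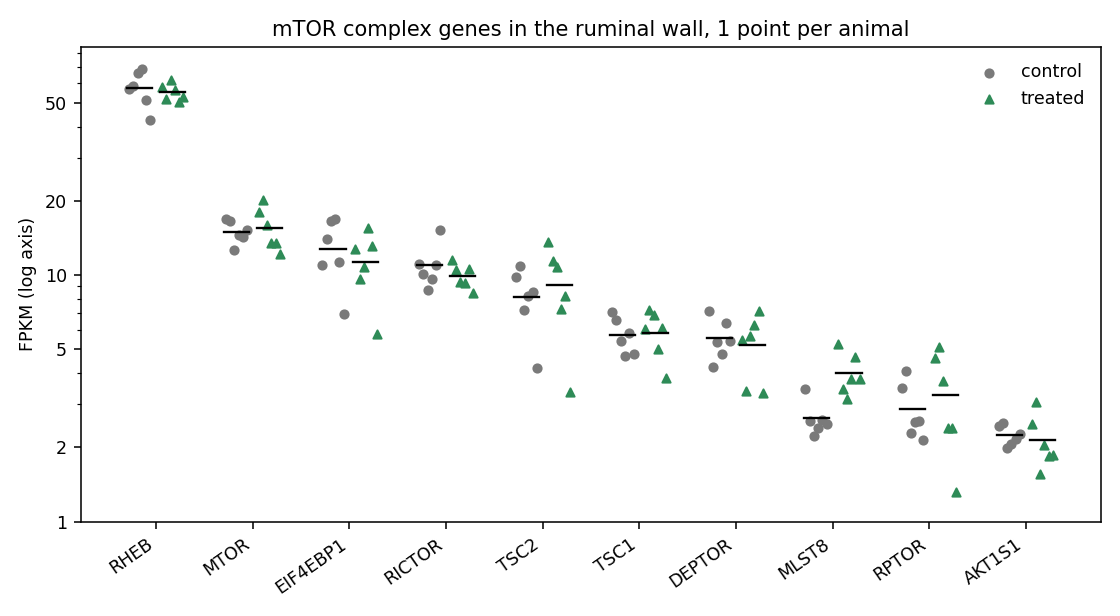
Level of each of the 10 genes in every animal, as FPKM on a log axis, with 1 point per animal (grey circles control, green triangles treated) and a bar at the mean of each group. The genes stand in order of their mean level, from RHEB at 56.4 FPKM to AKT1S1 at 2.19 FPKM, and in MLST8 4 of 6 treated animals lie above every control animal.

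RHEB had the highest level, with a mean over the 12 animals of 56.4 FPKM, above MTOR in 12 of 12 animals. MTOR followed at 15.3 FPKM, then EIF4EBP1 at 12.05, RICTOR at 10.5, TSC2 at 8.64, TSC1 at 5.79, DEPTOR at 5.38, MLST8 at 3.32, RPTOR at 3.06 and AKT1S1 at 2.19 FPKM. Each gene was compared with the next lower one by an exact sign-flip permutation test of the log2 ratio within animals, adjusted over these 9 pairs. The order came from the same 12 animals, so that the pairs were set by the values tested. The test sets the mean log2 ratio of a pair against its spread between animals, and is no independent test of the order. The steps from RHEB to MTOR (adjusted p = 0.00439), from TSC2 to TSC1 (0.00879), from DEPTOR to MLST8 (0.00879), from RPTOR to AKT1S1 (0.0286) and from MTOR to EIF4EBP1 (0.0492) passed the threshold. The pairs EIF4EBP1 and RICTOR, TSC1 and DEPTOR, and MLST8 and RPTOR (adjusted p = 0.393 for each), as well as RICTOR and TSC2 (0.0732), did not differ beyond their spread by this permutation test. Of the 2 defining subunits, the mTORC2 subunit RICTOR had the higher transcript level in every animal, with RPTOR at 0.485 of RICTOR at most.

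The kinase itself, MTOR (gene 102407977, 8821 bases of gene model), ranged from 12.7 to 16.9 FPKM in control animals, with a median of 14.9, and from 12.1 to 20.2 FPKM in treated animals, with a median of 14.8. Treated replicates 1 and 2 lay above every control animal and treated replicate 6 below all of them, so that the groups overlapped. The log2 fold change was 0.03 ± 0.14 (SE, 6 animals per group), with a 95% interval from -0.26 to 0.33 (limma p = 0.805, exact permutation p = 0.797). With 1363 to 2148 reads per animal, MTOR was the deepest counted of the 10 genes, and its interval runs from 0.835-fold to 1.26-fold.

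MLST8 (gene 102415341, 1636 bases), a WD-repeat protein that binds next to the active site of the kinase, was counted in 43 to 103 reads per animal. In control replicates 1 to 6 its level was 3.45, 2.57, 2.22, 2.41, 2.59 and 2.496 FPKM, and in treated replicates 1 to 6 it was 5.26, 3.45, 3.15, 3.799, 4.64 and 3.79 FPKM. The groups overlapped through a single control animal. Control replicate 1 stood slightly above treated replicate 2 and above treated replicate 3, whereas every treated animal was above the other 5 control animals and above the control median of 2.53 FPKM. The mean was 2.62 ± 0.429 FPKM (SD, n = 6) in control and 4.02 ± 0.788 FPKM (SD, n = 6) in treated animals.

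The log2 fold change of MLST8 was 0.61 ± 0.17 (SE), with a 95% interval from 0.25 to 0.96 and a nominal limma p-value of 0.00275. When the mean log2 levels were compared by a two-sided exact permutation test, p was 0.00649, where 0.00216 is the smallest value that this design allows. Without both animals numbered 6 the log2 fold change was 0.61, with a nominal limma p-value of 0.00579. MLST8 held rank 10 by p-value among the 12642 genes, and 3.72% of them had a larger absolute log2 fold change. Its limma p-value adjusted over all genes was 0.9997. Counting error alone at this depth amounts to a coefficient of variation of 12.3%, against 18.1% observed between animals of a group. In total, 313 reads of MLST8 were counted in the control and 477 in the treated group.

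**Figure D2:**
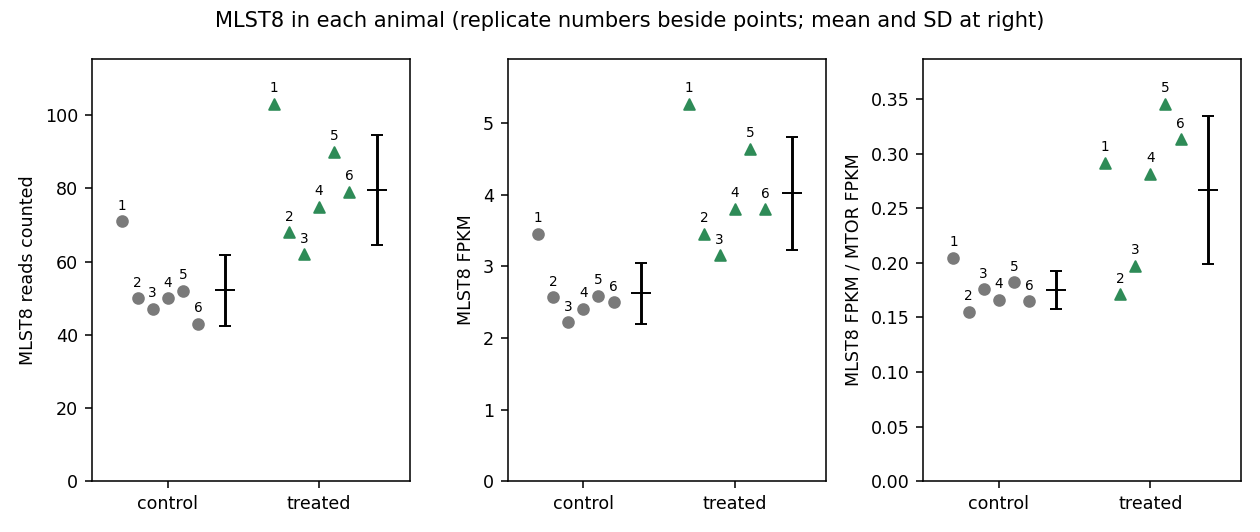
MLST8 in each animal as reads counted, as FPKM and as the ratio of MLST8 to MTOR FPKM, with control animals as grey circles, treated animals as green triangles, replicate numbers above the points, and the mean with SD (n = 6) at the right of each group. Control replicate 1 is the only control animal within the treated range in reads and FPKM, and treated replicates 2 and 3 lie at control level in the ratio to MTOR.

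Among the 10 genes, MLST8 is the one whose oligonucleotides for rt-qPCR are listed by the study, whose measurements were not analysed here. These oligonucleotides show which transcript the study followed up, and are given 5′ to 3′ in capitals throughout, with 60% G and C in the forward oligonucleotide of 20 bases and 52.4% in the reverse one of 21 bases.
MLST8_Fw: CATCACATCCGCCCACATCG
MLST8_Rv: ATCTTGGTCTTGGGGATGAGC

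In the buffalo reference annotation NDDB_SH_1, which is another assembly than the one used for counting, BRICD5 overlaps MLST8. The reads were counted by strand. BRICD5 had a mean of 0.0866 ± 0.0869 FPKM in control and 0.0646 ± 0.0470 FPKM in treated animals (SD, n = 6), far below MLST8 in both groups. Around MLST8 in the gene order of that assembly, the tested genes DNASE1L2, E4F1, PGP (the deposited name for LOC102403860), TRAF7 and LOC112581781 had log2 fold changes between -0.19 and 0.12, and the smallest of their limma p-values was 0.437. Their 95% intervals all included 0. The next gene on the other side, CASKIN1, was below the filter on low values and was listed at 0.181 ± 0.0774 FPKM in control and 0.0652 ± 0.0455 FPKM in treated animals (SD, n = 6).

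RPTOR (gene 102412399, 9375 bases), the subunit that defines mTORC1, ranged from 2.14 to 4.10 FPKM in control animals (median 2.55) and from 1.32 to 5.09 FPKM in treated animals (median 3.06). Treated animals thus held both the highest values, in replicates 1 and 2, and the lowest, in replicate 6. Between the diets the log2 difference was 0.09 ± 0.31 (SE), with a 95% interval from -0.57 to 0.75 (limma p = 0.778, exact permutation p = 0.784). Without both animals numbered 6 it was 0.25, with a nominal limma p-value of 0.357.

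AKT1S1 (gene 102395301, 2563 bases), also called PRAS40, is an mTORC1 component that restrains the kinase until AKT phosphorylates it. It was the least abundant of the 10 genes, with 1.99 to 2.52 FPKM in control (median 2.21) and 1.56 to 3.04 FPKM in treated animals (median 1.95). Treated replicate 2 was above all control animals, and treated replicates 3, 5 and 6 were below all of them. The difference in log2 was -0.10 ± 0.18 (SE), with a 95% interval from -0.49 to 0.29 (limma p = 0.602, exact permutation p = 0.541).

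DEPTOR (gene 102390507, 6910 bases) binds the kinase in both complexes and inhibits it. Control animals had 4.24 to 7.15 FPKM (median 5.37) and treated animals 3.32 to 7.13 FPKM (median 5.58). The highest values were almost equal in the groups, while treated replicates 2 and 6 were below every control animal. For DEPTOR the log2 difference was -0.13 ± 0.21 (SE), with a 95% interval from -0.59 to 0.33 (limma p = 0.554, exact permutation p = 0.571).

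RICTOR (gene 102395452, 9677 bases), the subunit that defines mTORC2, was at 8.71 to 15.2 FPKM in control (median 10.5) and at 8.43 to 11.6 FPKM in treated animals (median 9.95). The control range was set by replicate 6 alone, since the other 5 control animals reached at most 11.1 FPKM. Its log2 fold change was -0.12 ± 0.14 (SE), with a 95% interval from -0.42 to 0.18 (limma p = 0.397, exact permutation p = 0.411). Without both animals numbered 6 it was 0.0227, with a nominal limma p-value of 0.831, so that the direction rests on these animals.

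Upstream of mTORC1, RHEB (gene 102410817, 1159 bases) ranged from 42.8 to 69.0 FPKM in control (median 57.8) and from 50.5 to 61.8 FPKM in treated animals (median 54.8). All treated animals lay inside the control range. Treated minus control, the log2 difference was -0.04 ± 0.12 (SE), with a 95% interval from -0.30 to 0.21 (limma p = 0.737, exact permutation p = 0.727), the narrowest interval of the 10 genes.

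TSC1 (gene 102401735, 8636 bases) stabilizes TSC2, and was at 4.69 to 7.08 FPKM in control (median 5.61) and 3.83 to 7.22 FPKM in treated animals (median 6.07). Both extremes were treated animals, replicate 6 at the bottom and replicate 2 at the top. Its log2 fold change was 0.02 ± 0.17 (SE), with a 95% interval from -0.36 to 0.39 (limma p = 0.932, exact permutation p = 0.935).

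TSC2 (gene 102389973, 5964 bases), whose protein carries the GTPase-activating domain that turns RHEB off, had the largest within-group SD of log2 FPKM of the 10 genes, while RPTOR had the larger coefficient of variation (37.1% against 34.7%). It ranged from 4.19 to 10.9 FPKM in control (median 8.38) and from 3.35 to 13.7 FPKM in treated animals (median 9.51). The lowest animal of each group was replicate 6, and treated replicates 1 and 2 were above all control animals. For TSC2 the log2 fold change was 0.09 ± 0.32 (SE), with a 95% interval from -0.59 to 0.77 (limma p = 0.774, exact permutation p = 0.775). Without both animals numbered 6 it was 0.18, with a nominal limma p-value of 0.342.

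EIF4EBP1 (gene 112582961, 871 bases), the translational repressor that mTORC1 inactivates, was at 6.98 to 16.9 FPKM in control (median 12.7) and 5.77 to 15.6 FPKM in treated animals (median 11.8). Replicate 6 was again the lowest animal in both groups. Its difference in log2 was -0.19 ± 0.26 (SE), with a 95% interval from -0.73 to 0.36 (limma p = 0.478, exact permutation p = 0.517). It was -0.17 without both animals numbered 6, -0.35 without control replicate 6 alone and -0.00629 without treated replicate 6 alone, with nominal limma p-values between 0.156 and 0.977 for these 3 fits.

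**Figure D3:**
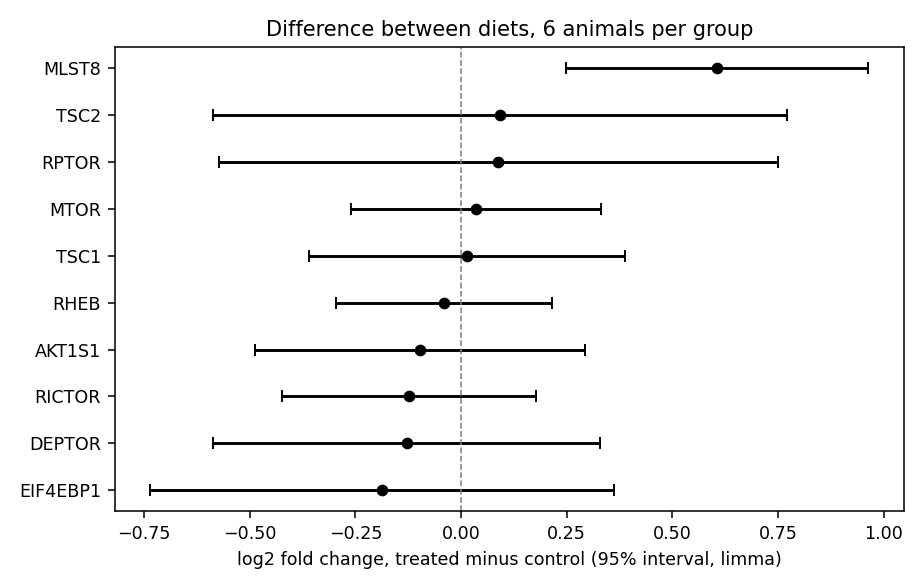
Log2 fold change between diets for the 10 genes, treated minus control, with the 95% interval from limma (6 animals per group). The interval of MLST8 runs from 0.25 to 0.96, and the other 9 intervals cross 0, from the widest for TSC2 (-0.59 to 0.77) to the narrowest for RHEB (-0.30 to 0.21).

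The 9 genes other than MLST8 thus had exact permutation p-values between 0.411 for RICTOR and 0.935 for TSC1. Without both animals numbered 6 the log2 fold change was 0.11 for MTOR, 0.0827 for TSC1, -0.11 for RHEB and -0.0147 for DEPTOR. The nominal limma p-values were 0.440, 0.579, 0.272 and 0.945. The genes differed in their spread between animals of a group. The within-group SD of log2 FPKM was 0.62 for TSC2, 0.58 for RPTOR and 0.49 for EIF4EBP1, which is larger than in 81.7%, 78.5% and 69.5% of the genes tested. RHEB (0.19), RICTOR (0.23), MTOR (0.23) and MLST8 (0.25) were among the steadier genes, with a smaller SD in 12.4%, 20.3%, 20.9% and 25.6% of genes. The largest and the smallest animal differed 4.08-fold in TSC2 and 3.87-fold in RPTOR, but 1.61-fold in RHEB. The smallest was treated replicate 6 in TSC2 (3.35 FPKM) and RPTOR (1.32 FPKM). Without both animals numbered 6 the lowest values were 7.25 and 2.29 FPKM, both in control replicate 3. The SD values above include both animals numbered 6, so that the spread of TSC2 and RPTOR rests in part on these libraries.

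Ratios within an animal do not depend on how its library was scaled, and 4 of them were tested. The ratio of MLST8 to MTOR was 0.155 to 0.205 in control animals (median 0.171) and 0.171 to 0.345 in treated animals (median 0.287). Treated replicates 1, 4, 5 and 6 were above every control animal, and treated replicates 2 and 3 were inside the control range. The difference in the log2 ratio was 0.57 ± 0.17 (SE), with a two-sided exact permutation p = 0.0195 and 0.0779 after adjustment over the 4 ratios. Without both animals numbered 6 the exact permutation p was 0.0635.

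The balance of the defining subunits, RPTOR to RICTOR, was 0.141 to 0.408 in control (median 0.263) and 0.157 to 0.485 in treated animals (median 0.321), with a log2 difference of 0.21 ± 0.33 (SE, exact permutation p = 0.535). TSC1 to TSC2 was 0.570 to 1.14 in control (median 0.701) and 0.444 to 1.14 in treated animals (median 0.662), a difference of -0.08 ± 0.23 (SE, exact permutation p = 0.766). EIF4EBP1 to EIF4E, the repressor against the cap-binding factor it holds, was 0.0798 to 0.191 in control (median 0.171) and 0.0597 to 0.176 in treated animals (median 0.157), a difference of -0.17 ± 0.31 (SE, exact permutation p = 0.530), and of -0.12 without both animals numbered 6. In each of these 3 ratios the groups overlapped over most of their range. Without both animals numbered 6 the log2 difference was 0.22 for RPTOR to RICTOR (exact permutation p = 0.421). For TSC1 to TSC2 it was then -0.0930 (exact permutation p = 0.611).

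Within the groups, the genes did not all vary together. After removal of the group means from the log2 FPKM, 36 of the 45 pairs of genes had a positive Pearson correlation over the 12 animals, and 7 pairs passed a permutation test adjusted over the 45 pairs (3 pairs by Spearman). All but 1 of these 7 pairs were positive, and the positive ones joined MTOR, RPTOR, TSC1, TSC2 and AKT1S1. High correlations were not particular to these genes. In likeness to MTOR among the 12642 genes tested, RPTOR held rank 92, AKT1S1 977, TSC1 996 and TSC2 1294. The share of passing pairs among all genes was not computed. The permutations exchanged centred values across both groups without allowance for the group means removed, so that their p-values are somewhat too small. MTOR with AKT1S1, MTOR with TSC1 and RICTOR with RHEB were close to the threshold and might not pass with that allowance, which was not tested. RPTOR and TSC2 gave r = 0.912 and rho = 0.958 (permutation, adjusted p = 0.00045 and 0.0009). MTOR and RPTOR gave r = 0.913 and rho = 0.846 (permutation, adjusted p = 0.0027 and 0.0189). Animals with more of the kinase transcript thus also had more of the RPTOR transcript, and so they did without both animals numbered 6, with the group means of all 6 animals still removed (r = 0.965 for MTOR and RPTOR, 0.939 for RPTOR and TSC2).

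RPTOR with TSC1 (r = 0.871, rho = 0.755, permutation, adjusted p = 0.0054 and 0.0554) and TSC1 with TSC2 (r = 0.844, rho = 0.748, permutation, adjusted p = 0.00641 and 0.0554) also passed by Pearson. The same holds for MTOR with AKT1S1 (r = 0.738, permutation, adjusted p = 0.0438) and MTOR with TSC1 (r = 0.735, permutation, adjusted p = 0.0482), while MTOR with TSC2 passed by Spearman (r = 0.696, rho = 0.818, permutation, adjusted p = 0.0592 and 0.0257). When the 2 animals farthest from the median of the gene named last in each pair were left out, r was 0.939 for RPTOR with TSC2, 0.864 for MTOR with RPTOR, and between 0.660 (TSC1 with TSC2) and 0.921 (MTOR with AKT1S1) for the other pairs of this kind.

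The one negative pair that passed was RICTOR with RHEB (r = -0.746, rho = -0.587, permutation, adjusted p = 0.0482 and 0.244). Control replicate 6 held both the highest RICTOR and the lowest RHEB level, and r was -0.444 without the 2 animals farthest from the RHEB median, control replicates 4 and 6. EIF4EBP1 depended on the same libraries, since its correlation with TSC2 was 0.636 over 12 animals and -0.539 without both animals numbered 6. MLST8 passed with none of the other 9 genes, and its coefficients lay between -0.190 with RHEB and 0.462 with DEPTOR.

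**Figure D4:**
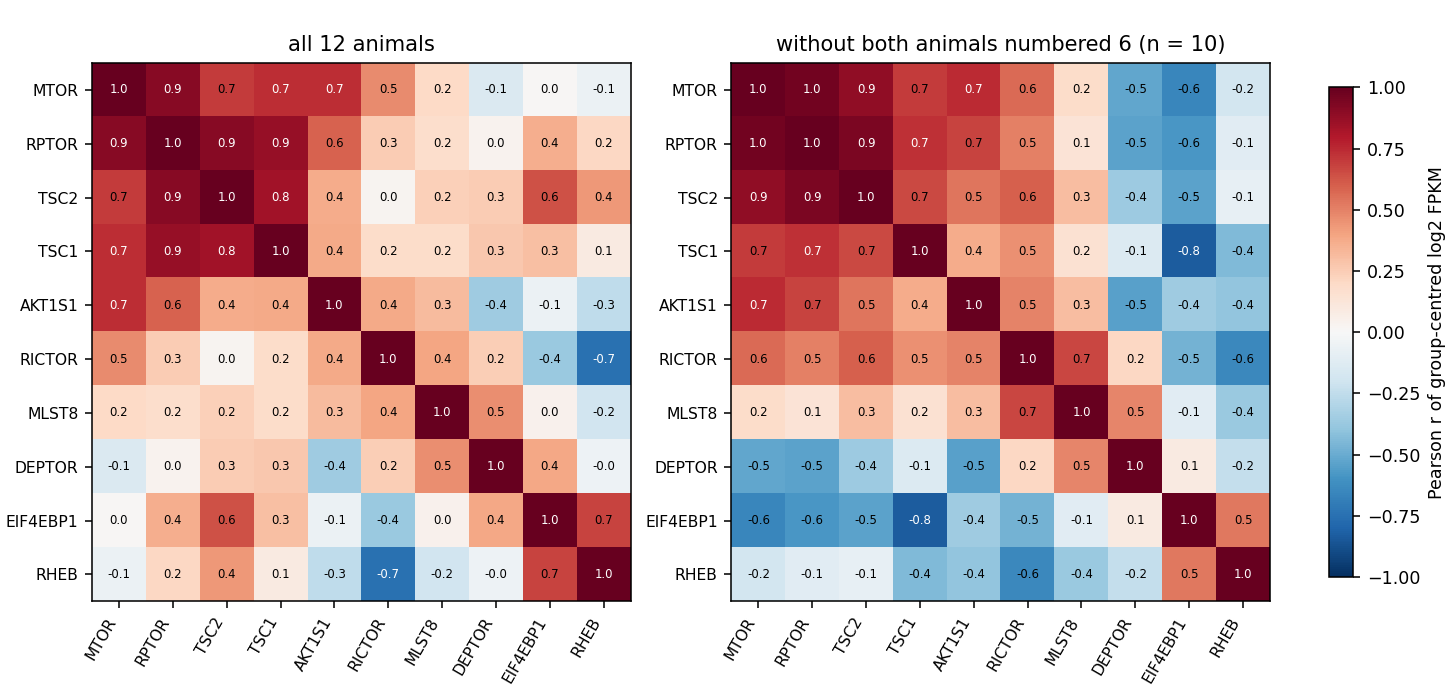
Pearson correlation between the 10 genes of log2 FPKM after removal of the group means, over all 12 animals (left) and over 10 animals without both animals numbered 6 (right), with red for positive and blue for negative values. MTOR, RPTOR, TSC1 and TSC2 correlate positively in both panels, while the correlation of EIF4EBP1 with TSC2 is 0.636 on the left and -0.539 on the right.

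Among the 12642 genes tested, those whose group-centred pattern over the 12 animals was most like that of MLST8 were SGPL1 (r = 0.902), which encodes sphingosine-1-phosphate lyase, PDLIM4 (0.852), GSTA4 (0.840), which encodes a glutathione transferase, PABPC4 (0.835), which encodes a poly(A)-binding protein, and CAP2 (0.815). MTOR was most like SIK2 (0.976), a kinase of the AMPK-related family, SPEN (0.969), PPARD (0.965), a fatty acid-activated nuclear receptor, PDPR (0.963) and PTPN23 (0.962). Between the diets, the smallest nominal p-value among these 10 genes was 0.206 (PDPR, limma). The closest of the other mTOR genes to MTOR was RPTOR at rank 92, and the closest to MLST8 was DEPTOR at rank 877.

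The tissue makeup of the samples was set beside these values. All 5 smooth muscle markers tested, of 8 listed, had a lower mean log2 level in treated animals, 1 of them (DES) with a nominal limma p-value below 0.05, and the exact permutation p for the summed level of all 8 was 0.0563. All 6 fibroblast markers were on the lower side with 0 below the nominal threshold, and 1 of the 6 squamous epithelium markers tested was lower. For their summed levels the exact permutation p was 0.325 and 0.517. Lower values were not particular to muscle and fibroblasts, since 4 of 5 endothelium and 3 of 4 tested immune markers were also lower. No defining marker of the smooth muscle, fibroblast and squamous epithelium lists was at 0 in all animals. KRT14 and DSC3 were not found in the table. The glial marker SOX10 and the neuronal marker ELAVL4 were listed at 0 in all animals.

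RPTOR, TSC2 and MTOR were lower in animals with a higher combined muscle and fibroblast score. Over the 12 group-centred animals, the combined score of 11 smooth muscle and fibroblast genes correlated with RPTOR at r = -0.752 and rho = -0.867 (permutation, adjusted over 10 genes p = 0.0227 and 0.0021), with TSC2 at r = -0.735 and rho = -0.902 (permutation, adjusted p = 0.0227 and 0.0016), and with MTOR at r = -0.723 and rho = -0.706 (permutation, adjusted p = 0.0294 and 0.0433). Without the 2 animals farthest from the median, which were treated replicates 1 and 2, these r were -0.619, -0.645 and -0.562. With the smooth muscle genes alone r was -0.524, -0.527 and -0.526, and none of the 3 passed (permutation, adjusted p = 0.271 for each). The score of 6 squamous epithelium genes gave r = 0.871 with TSC2, 0.784 with RPTOR and 0.702 with TSC1 (permutation, adjusted p = 0.0016, 0.0135 and 0.0366), and 0.7001, 0.596 and 0.385 without both animals numbered 6.

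MLST8 showed no such relation to the muscle and fibroblast score (r = -0.237, rho = -0.168, permutation, adjusted p = 0.527 and 0.673). With the epithelium score its r was 0.601 and its rho 0.664 (permutation, adjusted p = 0.0768 and 0.0629), and r was 0.770 without both animals numbered 6. With the muscle and fibroblast score as a covariate the log2 fold change of MLST8 was 0.55, with a nominal limma p-value of 0.01003, and with the epithelium score it was 0.50, with a nominal limma p-value of 0.00761. With the same covariates the log2 fold changes of RPTOR were -0.29 and -0.24 and those of TSC2 -0.30 and -0.30, on the other side of 0 from the values without a covariate and still not past the threshold.

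The wider pathway was described through 86 further genes in 6 lists, of which 84 were found in the table and 82 were tested. Of these 82 genes, 0 were higher and 1 was lower in treated animals at the nominal threshold, where 0.791% and 0.451% of all genes were. The gene was GRB10, which encodes an adaptor that binds the insulin receptor and dampens its signal, and whose protein is a substrate of mTORC1. Its level was 3.01 to 5.18 FPKM in control (median 4.43) and 2.39 to 3.84 FPKM in treated animals (median 3.12). The groups overlapped, with control replicates 4 and 6 inside the treated range.

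GRB10 had a log2 fold change of -0.41 ± 0.17 (SE), with a nominal limma p-value of 0.0283 and an adjusted one of 0.9997, and an exact permutation p = 0.0260. The nominal call was lost in 5 of 12 fits with 1 animal left out, which were those without control replicates 2, 3 or 5 and without treated replicates 5 or 6, where the limma p-values reached at most 0.0690. In these 12 fits the log2 fold change ran from -0.51 to -0.34. The smallest limma p-value, 0.00602, was that without control replicate 6. Replicate 6 was the lowest animal in both groups. Without both animals numbered 6 the log2 fold change was -0.43, with a nominal limma p-value of 0.00790.

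The other lists held no gene past the threshold in limma. For the other subunits and assembly factors (7 of 8 tested) the median log2 fold change was 0.04, and the smallest limma p-value was that of TTI1 (0.20, p = 0.291, exact permutation p = 0.236), a factor that helps to fold the kinase. In the amino acid sensing list (29 of 31 tested, median 0.01), which holds the Rag GTPases and their regulators, it was that of BMT2, or SAMTOR, the S-adenosylmethionine sensor (-0.15, p = 0.234, exact permutation p = 0.115). In the energy and stress list (9 of 10 tested, median -0.08) it was that of PRKAG1, an AMPK subunit (0.20, p = 0.0975, exact permutation p = 0.0498).

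In the translation list (11 of 11 tested, median -0.01) the smallest limma p-value was that of EIF4EBP2, a paralogue of EIF4EBP1 (log2 fold change 0.14, p = 0.276, exact permutation p = 0.247), and in the autophagy and growth list (12 of 12 tested, median 0.02) that of NDRG1, a readout of mTORC2 through SGK1 at the protein level (0.18, p = 0.378, exact permutation p = 0.413). In the insulin and PI3K list, which holds GRB10, the median over 14 genes was -0.06. Over all 82 genes the median was 0.01, as over all genes tested.

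**Figure D5:**
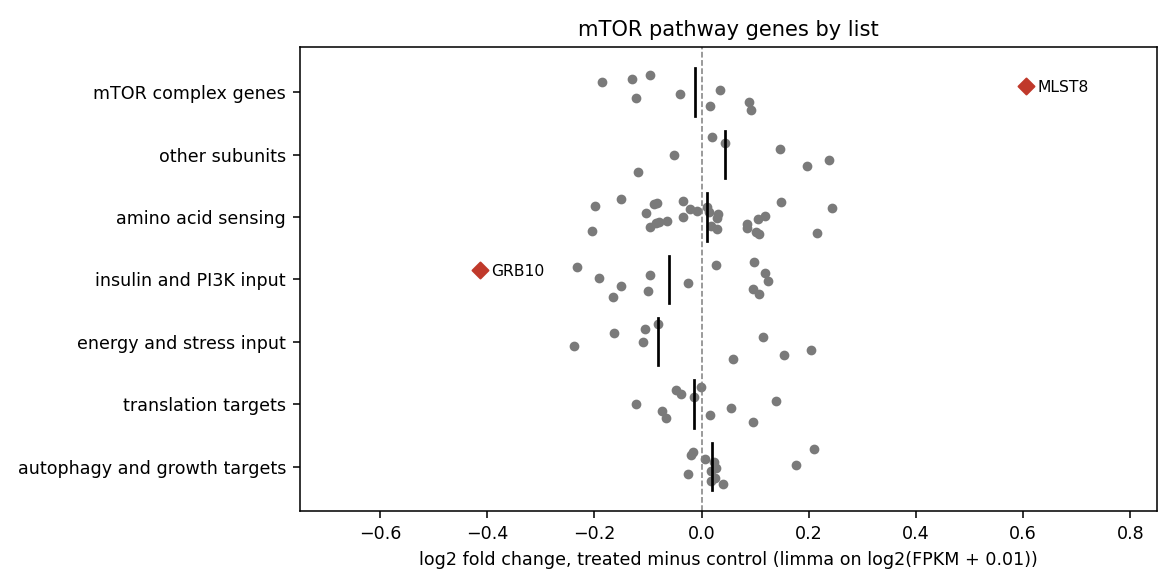
Log2 fold change between diets, treated minus control, of the 10 mTOR complex genes and of the tested genes of 6 lists, with 1 point per gene, red diamonds for nominal limma p-values below 0.05 and a bar at the median of each list. MLST8 (0.61) and GRB10 (-0.41) are the only diamonds, and the list medians lie between -0.08 and 0.04.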

How the data were processed

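Total RNA of ruminal wall was sequenced from 12 buffaloes, 6 per diet. Per the labels, the study's notes and its methods, the reads were trimmed (Trimmomatic 0.39), aligned with STAR 2.5.2b to UOA_WB_1 and counted per gene and strand with featureCounts 2.0.0. The authors deposited FPKM values for 34037 genes; the tool and gene lengths behind them are not given in the sources used here. Of 16 columns of values, 12 matched the labels and 4 were not used.

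Since FPKM are not counts, the study's count test was replaced by limma 3.58.1 in R 4.3.3 (lmFit, eBayes with trend) on log2(FPKM + 0.01). Adjusted p-values follow Benjamini and Hochberg across the 12642 genes below. Fold changes are on that scale. The steps between FPKM values gave whole reads for 100% of values (within 0.01 read), gene lengths and the fragments per animal. With these reads, 12642 genes reached the study's filter, about 42 scaled reads in at least 1 animal. All 10 genes matched the reference gene table by identifier. Tissue scores are means of standardised log2 values. Single values were tested by two-sided exact permutation, and correlations with 100000 permutations of group-centred values across both groups. No allowance was made for the group means removed, so that p-values of correlations, also those with the tissue scores, are somewhat too small. Python 3.11.15, numpy 2.4.6, scipy 1.17.1, pandas 2.3.3 and matplotlib 3.10.9 were used.

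On simulated data of 6 against 6 animals, limma gave nominal p-values below the threshold for 5.10% of 12442 unchanged genes, for 86% of 100 genes given a log2 difference of 1 and for 96% of 100 given a difference of 2. In this simulation every gene was drawn independently, without tissue or library differences shared between genes. The real data gave 1.24% of the genes tested below the nominal threshold, so that the simulated rates need not hold for them. The numbers 1 to 6 given here to the animals of each group are those of the sample descriptions. The sample titles and table columns use other numbers for all treated animals and for control replicate 6, and the replicate block rests on the descriptions.

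The genes, lists and tests were chosen with earlier results of these data known. Named in the text are all 10 genes, the genes of the lists with a nominal p-value below 0.05 or else the smallest p-value of their list, and the 5 genes most like MLST8 and MTOR; EIF4E and the neighbours of MLST8 were added, as were EIF4G1 and PRKAB2, both picked with their values in view. Alternatives were pseudocounts of 0.1 and 1, 2 other filters on low values, 2 other scalings, an exact rank-sum test, robust empirical Bayes, voom on the recovered reads, a replicate block, a muscle and fibroblast score as covariate and each animal left out. Leaving out both animals numbered 6 and the epithelium score as covariate were chosen after seeing the data.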

Additional observations from a re-analysis of the deposited data

Results flagged for a closer look

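In 28 groups of 6 animals, the gap between the most extreme animal and its nearest neighbour was set against the whole range of the group. Chance passes Dixon's 95% limit in about 1 of 20 groups, and 4 groups passed it here. The level of MLST8 in control replicate 1, at 3.45 FPKM, stood apart above the other control animals, and without this animal the log2 fold change of MLST8 was 0.69. The level of RICTOR in control replicate 6, at 15.2 FPKM, stood above the other control animals. The log2 ratio of EIF4EBP1 to EIF4E was far below the others of its group in control replicate 6 (-3.65) and in treated replicate 6 (-4.07).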

How the results depend on the processing

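MLST8 was called in all 13 alternatives and in all 12 fits with 1 animal left out. Its log2 fold change was 0.46 to 0.61 in the alternatives (p = 0.00110 to 0.01003, limma and the exact rank-sum test) and 0.52 to 0.69 with 1 animal left out. No other of the 10 genes passed the nominal threshold in any of them. Adjusted over all genes, 0 genes passed throughout. The number of genes at the nominal threshold was 562 with all genes above 0, 301 with at least 0.1 FPKM in 6 animals, 322 with the replicate block, 359 with the muscle and fibroblast score, 596 with the epithelium score, 314 without both animals numbered 6, and 142 to 325 with 1 animal left out (325 without treated replicate 6). Pathway genes called were 2 with either score (GRB10 and EIF4G1) and 0 to 1 with 1 animal left out (PRKAB2 in place of GRB10 without control replicate 5).

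Log2 fold changes near 0 changed sign. With the muscle and fibroblast score they were -0.11 (MTOR), -0.29 (RPTOR), -0.11 (TSC1) and -0.30 (TSC2), with the epithelium score -0.0694, -0.24, -0.13 and -0.30. As differences of the group medians, printed beside the rank-sum test, they were -0.0147 for MTOR and 0.0552 for DEPTOR, and without both animals numbered 6 RICTOR was at 0.0227. With 1 animal left out the ranges were -0.0452 to 0.10 (MTOR), -0.0685 to 0.32 (RPTOR), -0.12 to 0.0154 (RHEB), -0.0518 to 0.13 (TSC1), -0.0875 to 0.36 (TSC2), -0.21 to -0.0132 (AKT1S1), -0.23 to -0.0112 (DEPTOR), -0.18 to -0.0235 (RICTOR) and -0.35 to -0.00629 (EIF4EBP1), and for the log2 ratios -0.23 to 0.0545 (TSC1 to TSC2) and -0.36 to 0.0612 (EIF4EBP1 to EIF4E). The log2 ratio of MLST8 to MTOR was 0.50 higher in treated animals without both animals numbered 6, no longer past the nominal threshold. DEPTOR correlated at 0.304 with the epithelium score and at 0.232 with the muscle and fibroblast score. The causes were not tested.

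Same-numbered animals of both groups correlated between -0.0134 and 0.416 in their deviations, with a mean of 0.213 against -0.0394 for other numbers. Of the 12 animals, 8 correlated best with their own number. These were the animals numbered 2, 3, 4 and 6, each counted from both groups. The numbers were not taken as pairs, and the replicate block changed no call among the 10 genes. MLST8 rests on 43 to 103 and AKT1S1 on 48 to 94 reads per animal, which limits their precision.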

Other observations

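Across the wider pathway, genes were sorted by their group-centred correlation with TSC2 over the 12 animals, and those named here were chosen with their values in view. TSC2 itself had r = 0.871 with the epithelium score. How many of all genes tested correlate with TSC2 as strongly as those named was not computed. TFE3, a transcription factor of lysosome genes that mTORC1 keeps out of the nucleus, had r = 0.983 with TSC2, followed by PRKCA (0.959), the PI3K regulatory subunit PIK3R2 (0.956), the translation factor EIF4G1 (0.940) and LARP1 (0.923), a regulator of ribosomal protein mRNAs. With both animals numbered 6 left out, these values were 0.914, 0.892, 0.878, 0.902 and 0.865. The RNA helicase EIF4A1 (-0.841), the Ragulator subunit LAMTOR3 (-0.814), the lysosomal arginine sensor SLC38A9 (-0.789) and the Ragulator subunits LAMTOR4 (-0.777) and LAMTOR2 (-0.727) had the most negative values. Leaving out the same 2 animals, they were at -0.451, 0.0313, -0.499, -0.723 and -0.644. The value of LAMTOR3 thus rests on these libraries, and those of EIF4A1 and SLC38A9 depend on them in part. These values are a description of 12 libraries that also differ in tissue markers, and without a covariate all of these genes missed the nominal threshold between the diets in limma.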
